A study of Mus musculus with 4 samples.

Results

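The C/EBP and KLF families hold many of the transcription factors that turn a preadipocyte into a fat cell. The C/EBP genes Cebpa, Cebpb, Cebpd and Cebpg, the KLF genes Klf2, Klf4, Klf5, Klf9 and Klf15 and the early B-cell factor gene Ebf1, 10 genes in all, were followed in the gonadal white adipose tissue (WAT) of mice that lack FSP27. They were chosen by name, and all 24 of their probe sets were read, of 22690 on the array. All 10 genes passed the filter on low signal, as did 8523 of 12394 named genes. FSP27-deficient mice (Fsp27 knockout) and wild-type mice were both C57BL/6J males of 3 months, and the labels give no other allele, agent or diet for either genotype. Equal amounts of RNA from 5 mice were pooled for each genotype, and each pool was hybridized to 2 Affymetrix arrays, 4 arrays in all. The duplicates are thus repeat hybridizations of 1 pool, and p-values measure the spread between hybridizations and not the spread between mice. Values are linear intensities, the signals given by the Affymetrix software GCOS. Fold changes are FSP27-deficient over wild-type on log2(signal + 16), so that changes of dim genes are understated.

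In cultured preadipocytes these factors act in order. Hormones that raise cAMP and glucocorticoids induce C/EBP beta and C/EBP delta early, and KLF4 and KLF5 act beside them. They in turn switch on PPAR gamma and C/EBP alpha, which hold the mature fat cell program together with KLF9 and KLF15, while KLF2 keeps Pparg off in preadipocytes. C/EBP beta is also a partner of PRDM16 in brown fat cells. WAT is a mixture of cells, and several of these genes are used elsewhere too, KLF2 and KLF4 in endothelium and C/EBP delta in stromal and myeloid cells.

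Of the 10 genes, 3 were called lower in FSP27-deficient WAT and 0 were called higher (limma, adjusted p under 0.05 over all genes tested). Over all genes 12.3% were called, 6.51% lower and 5.78% higher. The genes called lower were Cebpd, Klf2 and Klf4, and 5 of the 10 had an unadjusted p under 0.05, the other two being Cebpb and Ebf1. Of all genes tested 25.3% had an unadjusted p under 0.05. Both FSP27-deficient arrays lay below both wild-type arrays for 4 of the 10 genes and above both for 1, Cebpb. Over all genes tested these shares were 31.4% and 22.7%, so that arrays of the genotypes that lie apart are common here and count for little by themselves. The 10 genes had a median of -0.19 on the log2 scale, beside -0.08 over all genes tested. All 3 calls were lost when either wild-type array was left out, and none of the 3 held without the trend of the spread on the signal.

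**Figure D1:**
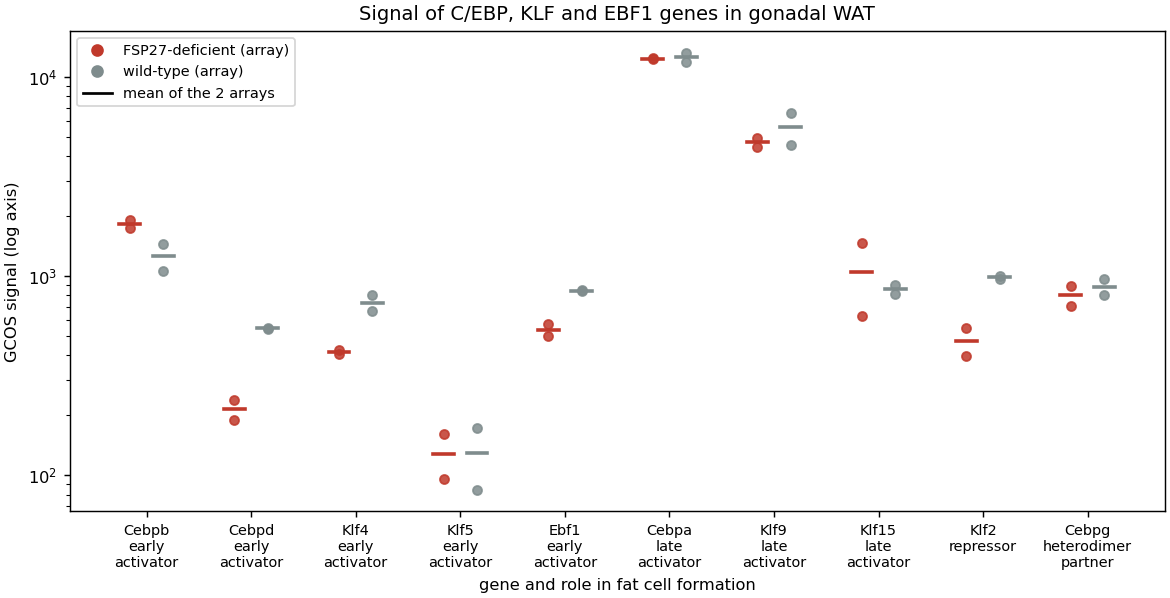
GCOS signal (log axis) of the brightest probe set of each gene, each array being a point and each short line a genotype's mean, FSP27-deficient in red and wild-type in grey. The FSP27-deficient points lie above both wild-type points for Cebpb and below both for Cebpd, Klf4, Ebf1 and Klf2, and the points overlap for the other 5 genes.

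The sequences just before the starts of 4 of these genes are shown to set the member with higher signals (Cebpb) beside 2 that were called lower (Klf2 and Klf4) and the member with the smallest change (Cebpa). They are the 250 bases before the RefSeq start (GRCm38.p6), written 5′ to 3′ along the gene's own strand. Capitals mark the letters TGACG (the core of a cAMP response element, which CREB binds), GGGCGG (known as the GC box, to which SP and KLF factors bind) and TATAAA (the core of the TATA element) on either strand. Cebpb lies at chr2:167688665-167688914 (+), Klf2 at chr8:72318812-72319061 (+), Klf4 at chr4:55532476-55532725 (-) and Cebpa at chr7:35119043-35119292 (+).
Cebpb: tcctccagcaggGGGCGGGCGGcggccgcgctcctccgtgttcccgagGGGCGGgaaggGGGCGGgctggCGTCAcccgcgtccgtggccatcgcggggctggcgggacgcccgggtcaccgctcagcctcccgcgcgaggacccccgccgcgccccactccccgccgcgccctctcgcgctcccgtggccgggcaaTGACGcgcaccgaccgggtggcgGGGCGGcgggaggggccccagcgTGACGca
Klf2: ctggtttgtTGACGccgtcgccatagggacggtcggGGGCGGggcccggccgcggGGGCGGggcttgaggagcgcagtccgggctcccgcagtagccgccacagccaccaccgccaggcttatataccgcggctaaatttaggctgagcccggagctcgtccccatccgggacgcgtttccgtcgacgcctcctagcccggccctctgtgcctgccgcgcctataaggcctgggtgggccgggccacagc
Klf4: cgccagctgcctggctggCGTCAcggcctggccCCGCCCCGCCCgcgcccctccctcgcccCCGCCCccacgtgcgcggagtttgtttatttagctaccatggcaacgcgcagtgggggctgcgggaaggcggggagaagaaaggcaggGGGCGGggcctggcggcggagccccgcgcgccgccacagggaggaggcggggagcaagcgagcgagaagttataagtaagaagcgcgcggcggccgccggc
Cebpa: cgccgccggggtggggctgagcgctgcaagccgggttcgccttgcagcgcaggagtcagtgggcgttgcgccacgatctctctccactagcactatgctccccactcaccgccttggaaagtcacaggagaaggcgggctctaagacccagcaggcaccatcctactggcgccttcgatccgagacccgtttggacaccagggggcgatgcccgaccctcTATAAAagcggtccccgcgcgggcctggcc

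Promoters of 8 of the 10 genes were in the RefSeq table, with 1 entry for each gene except Ebf1, which had 2. Cebpd and Klf5 had no entry, so the sequence of Cebpd could not be shown beside that of Cebpb. TGACG was found 3 times before Cebpb, with first bases at -180, -53 and -7 from the start, once each before Klf2 (-241), Klf4 (-232) and Klf9 (-46), and 2 times before Klf15 (-78 and -6). In all 5 of the 8 genes held it, as did 17.8% of the 32851 promoter windows of this length, and Cebpa, Cebpg and Ebf1 did not. GGGCGG was found in 4 of the 8 genes (Cebpb, Klf2, Klf4 and Klf15) and in 32.7% of all windows, and some of its matches before Cebpb and Klf4 overlap each other. TATAAA was found before Cebpa alone of the 8, at -30, and in 12.4% of all windows. The letters TTNNGNAA, a loose form of the site that C/EBP proteins bind, were found in 1 of the 8 genes, Ebf1, in 1 of its 2 windows, and in 36.8% of all windows. These matches describe the letters of the windows only.

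Of the genes of the earliest step, Cebpd was called lower and Cebpb was not called. Cebpb, which encodes C/EBP beta, had higher signals in FSP27-deficient WAT with both of its probe sets. The brighter (1418901_at) had signals of 1921 and 1741.5 in FSP27-deficient WAT, against 1453 and 1059.4 in wild-type WAT. The genotypes did not overlap, but the log2 fold change of 0.55 (standard error, SE, of 0.21, 95% interval 0.10 to 1.01) did not pass the threshold (limma, adjusted p = 0.11). On the other (1427844_a_at) the signals were 965 and 1054.1 in FSP27-deficient WAT, against 653.1 and 424.1 in wild-type WAT. Tested among the 13225 probe sets with a mean signal of at least 100, it was called higher, with a log2 fold change of 0.92 (SE 0.25, limma adjusted p = 0.032). In that fit 5.06% of probe sets were called higher and 5.59% lower. The wild-type array with the lower Cebpb signal on both probe sets was replicate 2, and without it the log2 fold change of 1427844_a_at was 0.61 and no longer called (adjusted p = 0.32), while without any other array it stayed past the threshold (adjusted p of 0.013 to 0.044).

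Cebpd, which encodes C/EBP delta, was lower. Its signal (1423233_at) was 188.6 and 239.8 in FSP27-deficient WAT, against 544.6 and 549.2 in wild-type WAT. The means of 214.2 ± 36.2 in FSP27-deficient WAT and 546.9 ± 3.22 in wild-type WAT (SD, n = 2 arrays each) put it 2.55-fold lower, with a log2 fold change of -1.30 (SE 0.26, limma adjusted p = 0.0074), the largest in size of the 10 genes. Without wild-type replicate 1 the adjusted p was 0.083 and without wild-type replicate 2 it was 0.082, at log2 fold changes of -1.31 and -1.29, and over its alternatives it ran from 0.0013 to 0.52. The second probe set of the gene (1456605_at) was dim and did not follow the first. Its signals were 203.4 and 29.2 in FSP27-deficient WAT, against 36.7 and 112.2 in wild-type WAT, which overlap, and its mean signal was below the minimum for a test. The highest adjusted p, 0.52, is that of the mean of both probe sets, with a log2 fold change of -0.51.

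The log2 fold change of Cebpb exceeded that of Cebpd by 1.85. Set against the wild-type mean, the log2 ratio of Cebpb to Cebpd was higher by 2.08 on FSP27-deficient replicate 1 and by 1.62 on replicate 2, while the wild-type arrays lay 0.23 to either side of their mean. The difference of 1.85 is the largest among the 45 pairs of the 10 genes. That rank adds nothing, since Cebpb had the highest and Cebpd the lowest log2 fold change of the 10. The difference is given with no test, since 2 arrays against 2 cannot give an exact permutation p below 0.333. The dim second probe set of Cebpd had a log2 difference of 0.28, the same sign as Cebpb.

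The 3 other factors that act early in fat cell formation were Klf4, Klf5 and Ebf1. Klf4, whose product activates Cebpb in preadipocytes, was called lower. Its brighter probe set (1417394_at) had signals of 405.4 and 425.1 in FSP27-deficient WAT, against 667.1 and 803 in wild-type WAT, a log2 fold change of -0.79 (SE 0.23, limma adjusted p = 0.041). The other (1417395_at) had 104.3 and 190.7 in FSP27-deficient WAT, against 271.2 and 263.2 in wild-type WAT, and its log2 fold change of -0.84 did not pass the threshold (limma, adjusted p = 0.21). Both probe sets kept the genotypes apart, in the direction opposite to that of Cebpb. The call of Klf4 was close to the threshold. It was lost without wild-type replicate 1 (adjusted p = 0.13), without wild-type replicate 2 (0.33) and without FSP27-deficient replicate 1 (0.075), and it stayed at 0.0497 without FSP27-deficient replicate 2.

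Ebf1, which encodes a factor that drives preadipocytes towards the fat cell fate, had lower signals on all 3 of its probe sets, none past the threshold. The brightest (1448293_at) had 576.3 and 498.2 in FSP27-deficient WAT, against 852.3 and 837.9 in wild-type WAT, a log2 fold change of -0.64 (95% interval -1.12 to -0.17, limma adjusted p = 0.078). A second (1416301_a_at) had 557.6 and 321.2 in FSP27-deficient WAT, against 653.3 and 745.1 in wild-type WAT, a log2 difference of -0.70 (limma, adjusted p = 0.14). On the third (1416302_at) the genotypes overlapped, with 413.8 and 300.3 in FSP27-deficient WAT, against 486.5 and 387.5 in wild-type WAT. Klf5, a target of C/EBP beta and delta that activates Pparg, was near the minimum signal. Its brighter probe set had 160.7 and 95.6 in FSP27-deficient WAT, against 173 and 84.8 in wild-type WAT. The other (1451739_at) had 161 and 96.8 in FSP27-deficient WAT, against 77.2 and 146.6 in wild-type WAT. On both the arrays of 1 genotype differed more than the genotypes did, and the gene's log2 fold change of 0.02 had a 95% interval of -1.22 to 1.27.

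**Figure D2:**
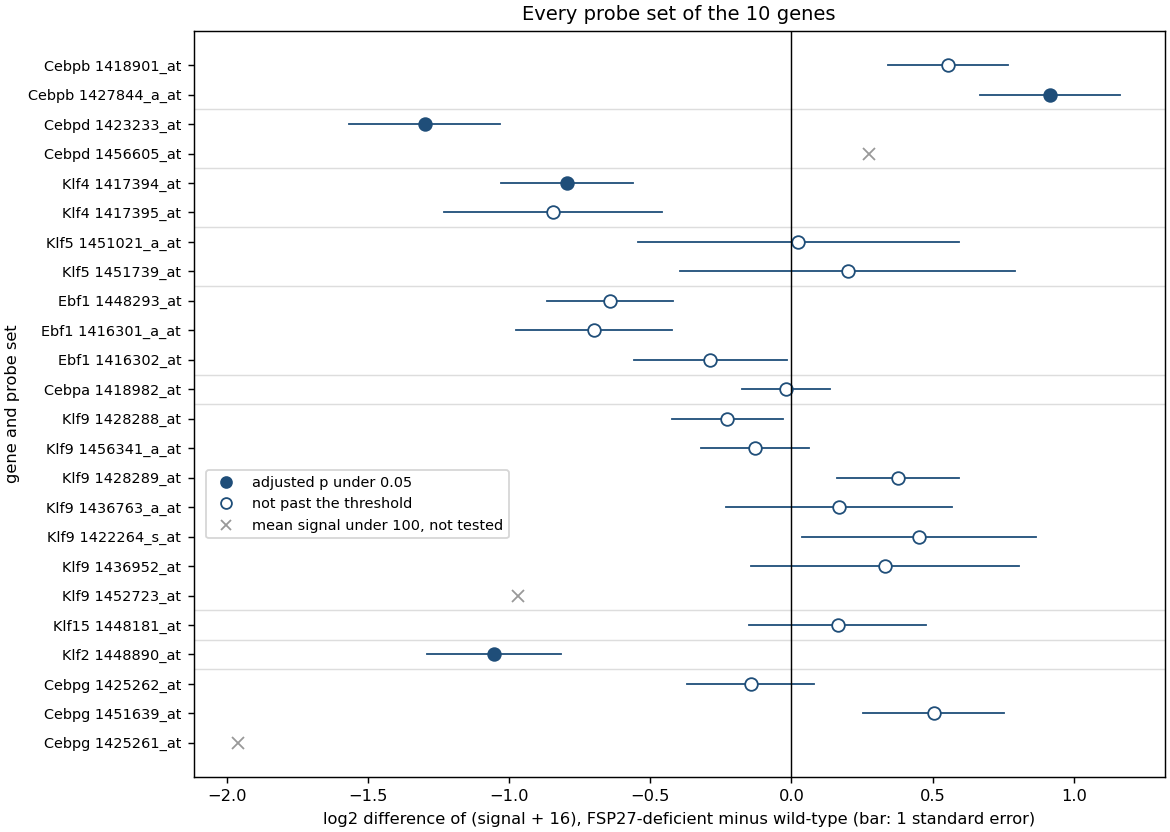
Log2 difference of (signal + 16), FSP27-deficient minus wild-type, for each of the 24 probe sets, with a bar of 1 standard error from limma for the 21 that were tested. Filled points passed the threshold (1 higher, 3 lower), open points did not, and crosses mark the 3 probe sets with a mean signal below 100.

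The factors of the mature fat cell showed no call. Cebpa, which encodes C/EBP alpha, had signals of 12401.7 and 12275.6 in FSP27-deficient WAT, against 11892 and 13152.8 in wild-type WAT. The FSP27-deficient values lay between those of wild-type, and the log2 fold change was -0.02 with a 95% interval of -0.35 to 0.31, the narrowest of the 10 genes (limma, adjusted p = 0.96). The interval covers the spread between hybridizations only.

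Klf9, which acts with C/EBP alpha late in differentiation, had 7 probe sets that did not point one way. The brightest (1428288_at) had 4441.7 and 4916 in FSP27-deficient WAT, against 4561.2 and 6569 in wild-type WAT, a log2 fold change of -0.23 (95% interval -0.65 to 0.20, limma adjusted p = 0.52). The next in signal (1456341_a_at) differed by -0.13 on the log2 scale and the third (1428289_at) by 0.38, with 1705.2 and 2509.3 in FSP27-deficient WAT, against 1523.3 and 1656.9 in wild-type WAT. Of the 6 that were tested, 0 passed the threshold, and their log2 differences ran from -0.23 to 0.45. The seventh (1452723_at), with 8.86 and 39.6 in FSP27-deficient WAT, against 51.5 and 62.4 in wild-type WAT, was too dim to be tested. The probe set with the difference of 0.45 (1422264_s_at) is of the kind whose probes can match transcripts of more than 1 gene.

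Klf15, which activates the glucose transporter gene Slc2a4 and genes of amino acid breakdown, differed more between duplicates than between genotypes. Its signals were 632.4 and 1458.5 in FSP27-deficient WAT, against 811.6 and 905.4 in wild-type WAT. The gap between the FSP27-deficient arrays was 1.19 on the log2 scale, against 0.16 between the wild-type arrays, and the FSP27-deficient arrays lay on either side of wild-type. Its log2 fold change was 0.16 (95% interval -0.53 to 0.85, limma adjusted p = 0.80). It was 0.76 and called higher without FSP27-deficient replicate 1 (adjusted p = 0.049) and -0.43 without replicate 2 (adjusted p = 0.27), so that the level of Klf15 in FSP27-deficient WAT depended on which hybridization was read.

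Set side by side as the early pair (Cebpb and Cebpd) and the late group (Cebpa, Klf9 and Klf15), the mean log2 fold changes were -0.37 and -0.03, a difference of -0.34 with no test. The mean of the early pair averages 2 values of opposite sign, 0.55 and -1.30. Against the wild-type mean the difference was -0.17 on FSP27-deficient replicate 1 and -0.52 on replicate 2, while the wild-type arrays lay 0.25 to either side. On these 2 FSP27-deficient arrays the early mean was -0.42 and -0.33, and the late mean was -0.25 and 0.19. The late mean includes Klf15, whose FSP27-deficient arrays lay 1.19 apart on the log2 scale. The early minus late difference was 0.06 when each gene was read as the mean of its probe sets, so its sign depended on that choice.

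Klf2, the member that represses Pparg, was called lower. Its signal (1448890_at) was 395.7 and 546.4 in FSP27-deficient WAT, against 996.3 and 970.3 in wild-type WAT. The genotypes lay well apart, with little spread between the wild-type arrays. The log2 fold change was -1.05 (SE 0.24, limma adjusted p = 0.011), with mean signals 2.09-fold lower than in wild-type. The adjusted p was 0.093 without wild-type replicate 1 and 0.076 without wild-type replicate 2, and ran from 0.0016 to 0.31 over its alternatives. Its log2 fold change kept its sign throughout, with -1.28 to -0.83 when each array was left out.

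Cebpg encodes C/EBP gamma, a partner that forms dimers with other C/EBP proteins. Its brightest probe set (1425262_at) had 711 and 887.3 in FSP27-deficient WAT, against 800 and 967.5 in wild-type WAT, which overlap, with a log2 fold change of -0.14 (95% interval -0.63 to 0.34). A second (1451639_at) had 543.2 and 605.7 in FSP27-deficient WAT, against 348.6 and 458.9 in wild-type WAT, a log2 difference of 0.50 (limma, adjusted p = 0.25). The third (1425261_at) went the other way, with 18.5 and 12.9 in FSP27-deficient WAT, against 127.8 and 89.1 in wild-type WAT, but had too low a signal to be tested. The 3 probe sets thus disagreed on the direction, and no direction is given for the gene.

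**Figure D3:**
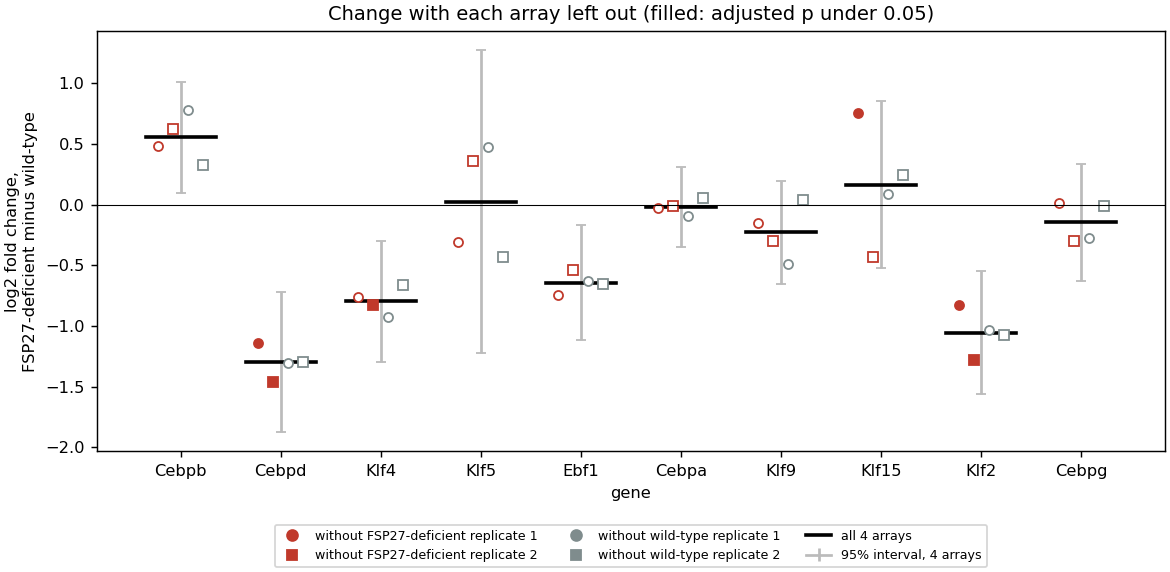
Log2 fold change (FSP27-deficient minus wild-type) of each gene from all 4 arrays (black bar, with its 95% interval in grey) and with 1 array left out (red, an FSP27-deficient array; grey, a wild-type array; filled, adjusted p under 0.05). Cebpd, Klf2, Klf4 and Ebf1 stayed below 0 and Cebpb above 0 with any array left out, the other 5 genes changed sign, and no point with a wild-type array left out passed the threshold.

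Among the other genes of the 3 families, 9 of the 12 on the annotated array passed the filter. Of these 9, 1 was called lower and 0 higher (6.51% and 5.78% over all genes). The gene called was Klf6, which encodes a zinc finger factor that represses the preadipocyte gene Dlk1. Its brightest probe set had 483.3 and 372.3 in FSP27-deficient WAT, against 1252.6 and 898.4 in wild-type WAT, a log2 fold change of -1.29 (SE 0.25, limma adjusted p = 0.0049). Without wild-type replicate 1 its adjusted p was 0.088. Its other probe sets differed by -0.21 and -0.49 on the log2 scale and were not called. The median log2 fold change of these 9 genes was -0.30. Both FSP27-deficient arrays were below both wild-type arrays in 6 of them (31.4% over all genes) and above both in 1, Ddit3 (22.7% over all genes), described below. Cebpe, Cebpz, Klf8, Klf11, Klf14 and Ebf4 were not analysed here.

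The other activators of fat cell formation held 13 tested genes with a median of -0.08, that of all genes. Of these 13, 1 was called in each direction (5.78% higher and 6.51% lower over all genes). Nr1h3, which encodes the oxysterol receptor LXR alpha, was called higher, with 1536.8 and 1785.7 in FSP27-deficient WAT, against 892.3 and 953.1 in wild-type WAT (log2 fold change of 0.83, limma adjusted p = 0.016). Stat5b, a signal transducer of growth hormone, was called lower, with 446.6 and 500.7 in FSP27-deficient WAT, against 835 and 770.5 in wild-type WAT (log2 fold change of -0.74, limma adjusted p = 0.046). Both calls were lost without either wild-type array, with adjusted p of 0.14 and 0.086 for Nr1h3 and 0.31 and 0.19 for Stat5b without replicates 1 and 2, and that of Stat5b also without FSP27-deficient replicate 1 (0.11). Pparg itself, named here as the common target of these factors and after its values were seen, had 2638.7 and 3406.4 in FSP27-deficient WAT, against 2547.6 and 2793.3 in wild-type WAT. Its log2 fold change of 0.17 did not pass the threshold (limma, adjusted p = 0.64). Of 19 tested repressors of fat cell formation, 0 were called by limma with a median of -0.40 on the log2 scale. An unadjusted p under 0.05 was reached by 3 of the 19, against 25.3% over all genes, and this count is not read as a result about repressors. The 3, named after their values were seen, were Zfp521 (-1.04, adjusted p = 0.091) and Hes1 (-1.02, adjusted p = 0.12), with lower signals, and Ddit3 (0.67, adjusted p = 0.065), with higher signals. Ddit3 encodes CHOP, a C/EBP protein that blocks the DNA binding of its partners, and its signals were 954.5 and 853.6 in FSP27-deficient WAT, against 528 and 596.3 in wild-type WAT.

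Of 12 tested genes that C/EBP alpha binds in fat cells, 0 were called higher and 2, Lep and Scd1, lower (5.78% and 6.51% over all genes). The median log2 fold change of the 12 was 0.23. In 7 of them (22.7% over all genes) the 2 FSP27-deficient arrays exceeded each wild-type array, and in 2 (31.4% over all genes) they were below each. Slc2a4, named after its values were seen, had a log2 fold change of 0.605 and was not called (limma, adjusted p = 0.056). With a signal minimum of 200, 1 gene of the list was called higher, and with a block for the replicate number 3 were. Lep, which encodes the hormone leptin, had 5050.8 and 3543.7 in FSP27-deficient WAT, against 10971.8 and 10320.4 in wild-type WAT (log2 fold change of -1.33, limma adjusted p = 8.8e-04). Scd1, which encodes an enzyme that desaturates fatty acids, had 30501.6 and 20148.7 in FSP27-deficient WAT, against 52363.4 and 63226.7 in wild-type WAT (log2 fold change of -1.21, limma adjusted p = 0.0018). Both calls held with any 1 array left out, but with no filter on signal only 1 gene of the list was called lower.

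KLF15 is known to activate enzymes of amino acid breakdown. Of 6 tested, 4 were called higher and 0 lower (5.78% and 6.51% over all genes), with a median log2 fold change of 0.72. Bcat2, the enzyme that takes the amino group off branched-chain amino acids in mitochondria, had 1834 and 1372.4 in FSP27-deficient WAT, against 710 and 466.4 in wild-type WAT (log2 fold change of 1.44, limma adjusted p = 0.0029), and it was called with any 1 array left out. Bckdha and Bckdhb, subunits of the complex that acts in the next step, had log2 fold changes of 0.93 (limma, adjusted p = 0.0070) and 0.81 (0.0099), and Gpt, an alanine transaminase, had 0.62 (0.028). The count was 1 when wild-type replicate 1 was left out, 2 when it was replicate 2 of that genotype, and 3 without FSP27-deficient replicate 1, where Gpt was lost (adjusted p = 0.058). Prodh, which encodes the first enzyme of proline breakdown and is named after its values were seen, went the other way, with 340.8 and 637.3 in FSP27-deficient WAT, against 838 and 765.8 in wild-type WAT. Its log2 fold change of -0.76 did not pass the threshold (limma, adjusted p = 0.11), and 1 enzyme of the list was called lower without FSP27-deficient replicate 2. Markers of brown fat cells moved with this list: 5 of 6 tested were called higher (5.78% over all genes). Their summed signal was 20327.6 and 24735.1 in FSP27-deficient WAT, against 1483.4 and 1088.2 in wild-type WAT. In FSP27-deficient WAT most of this sum was Cox8b (13491.2 and 19539). Ppargc1a was not called (log2 fold change of 0.26, limma adjusted p = 0.78), and Ucp1 was too dim to be tested. These 3 are named after their values were seen. The part of brown fat cell markers in the result was not tested.

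Glucocorticoids induce Cebpd, and other genes they induce were counted beside it. Of 12 tested, 5 were called lower and 0 higher (6.51% and 5.78% over all genes), with a median log2 fold change of -0.74. Markers of macrophages (median -1.26), of fibroblasts or preadipocytes (-0.66), of smooth muscle or pericytes (-0.80) and of mesothelium (-1.12) had negative medians beside this list, with the counts and sums given below, and their part in the result was not tested. Mt2, a metallothionein that binds zinc, had 437.3 and 461.7 in FSP27-deficient WAT, against 2084.2 and 2964.7 in wild-type WAT (log2 fold change of -2.43, limma adjusted p = 5.5e-05). Mt1 (-1.44, adjusted p = 8.8e-04), Tsc22d3, which encodes the glucocorticoid-induced protein GILZ (-0.98, adjusted p = 0.0058), and Lcn2, a lipocalin (-0.97, adjusted p = 0.022), were also called lower, as was Sult1a1, a sulfotransferase named after its values were seen (-0.90, adjusted p = 0.010). Another, dimmer probe set of Tsc22d3 differed by 1.02 in the other direction and was not called (adjusted p = 0.065). Without wild-type replicate 1 only Mt2 and Mt1 stayed past the threshold, and Lcn2 was also lost without FSP27-deficient replicate 1 (adjusted p = 0.077). The metallothionein genes also respond to metals. Fkbp5 (-0.58, adjusted p = 0.12) and Per1 (0.50, adjusted p = 0.43), which are glucocorticoid targets in many tissues and were named after their values were seen, were not called.

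Of 12 tested immediate-early genes, which cells switch on within minutes of a stimulus, 4 were called lower and 0 higher (6.51% and 5.78% over all genes), and the median log2 fold change was -0.68. They were Ccn1 (log2 fold change of -1.29, limma adjusted p = 0.026), Fos (-1.23, adjusted p = 0.033), Jun (-1.17, adjusted p = 0.026) and Zfp36 (-0.91, adjusted p = 0.030). With no filter on signal limma called 0 genes of the list lower, and with quantile normalization 1. Fos had 119.7 and 179.2 in FSP27-deficient WAT, against 410.5 and 325.4 in wild-type WAT. Jun had 228.5 and 451.5 in FSP27-deficient WAT, against 839.8 and 657.5 in wild-type WAT. Both FSP27-deficient arrays lay below both wild-type arrays for 8 of the 12 genes (31.4% over all genes) and above both for 1 (22.7%), Nr4a1 (0.54, limma adjusted p = 0.26). The genotypes overlapped for Dusp1 (0.11), Ier2 (-0.06) and Junb (-0.17), which like Nr4a1 are named after their values were seen. Klf2, Klf4 and Klf6 are themselves induced quickly by stimuli and had lower signals, and a cause shared with this list was not tested. Without wild-type replicate 1, and likewise without wild-type replicate 2, limma called 0 genes of this list. Of the 4 genes, Ccn1 alone stayed past the threshold without FSP27-deficient replicate 1, and the other 3 but not Ccn1 (adjusted p = 0.057) without FSP27-deficient replicate 2.

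**Figure D4:**
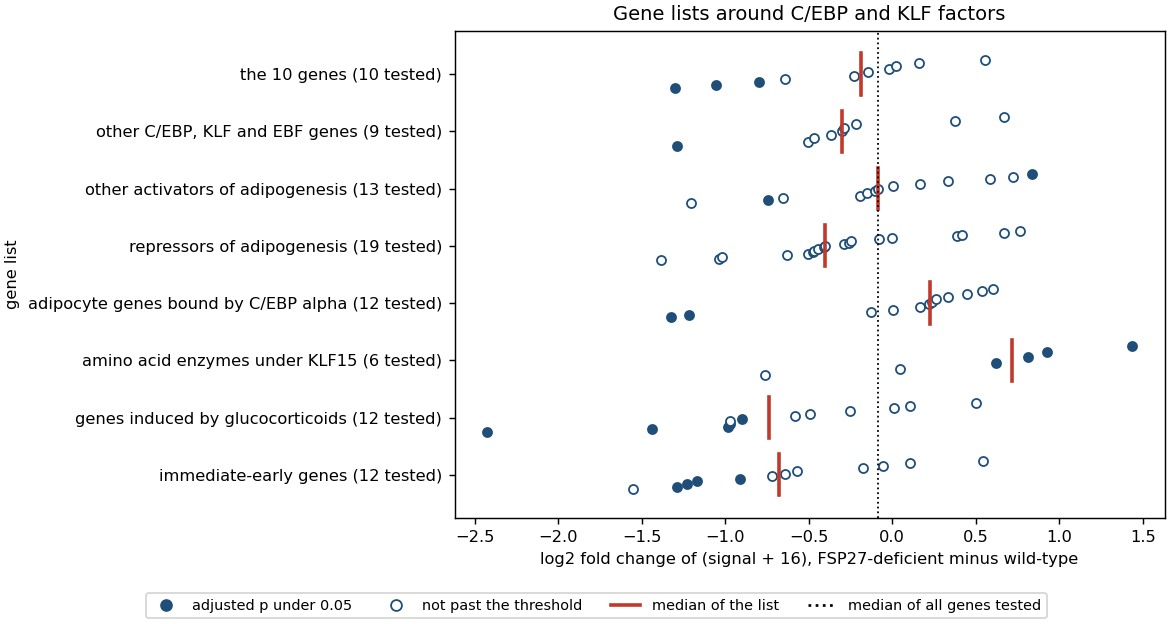
Log2 fold change (FSP27-deficient minus wild-type) of each tested gene of the 10 and of 7 lists related to them, filled where the adjusted p was under 0.05, with the median of each list in red and that of all genes tested (-0.08) as a dotted line. Enzymes under KLF15 lay mostly above 0 (median 0.72), and genes induced by glucocorticoids and immediate-early genes mostly below (medians -0.74 and -0.68).

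Markers of cells other than fat cells had lower summed signals in FSP27-deficient WAT, as had Cebpd, Klf2, Klf4, Klf6 and Ebf1. Of 9 endothelial markers, 1 was called lower and 0 higher (6.51% and 5.78% over all genes), with a median log2 fold change of -0.56. Their summed signal was 6038.6 and 6391.2 in FSP27-deficient WAT, against 8085.5 and 8868.6 in wild-type WAT. The same shares over all genes stand beside the counts of the marker lists that follow. Of 7 macrophage markers 5 were called lower (sums of 5870.9 and 7142.4 in FSP27-deficient WAT, against 16663.1 and 14977.8 in wild-type WAT), and of 7 markers of fibroblasts or preadipocytes 4 were called lower (sums of 22881.8 and 26712.9 in FSP27-deficient WAT, against 43009.9 and 42055.3 in wild-type WAT). Of 6 markers of smooth muscle or pericytes 3 were called lower (9108 and 7920.6 in FSP27-deficient WAT, against 14919.1 and 16579.9 in wild-type WAT), as were 3 of 5 mesothelial markers (1738.9 and 1258.1 in FSP27-deficient WAT, against 3917.3 and 4052.1 in wild-type WAT). No marker of these lists was at 0. Their part in the lower signals of Cebpd, Klf2, Klf4, Klf6 and Ebf1, of the genes induced by glucocorticoids and of the immediate-early genes was not tested, and in pooled tissue fewer cells of a type and less RNA per cell cannot be told apart. Fat cell markers had signals of at least 1654.6 on all 4 arrays, with 1 of 6 called higher and 1, Cidec, called lower. Summed, they gave 148748.5 and 160150.1 in FSP27-deficient WAT, against 134465.3 and 139941.9 in wild-type WAT. The median log2 fold change of the 6 was 0.275. The genotypes did not overlap for any of them, with 5 higher in FSP27-deficient WAT (22.7% over all genes) and 1, Cidec, lower (31.4%). Cidec, the gene that encodes FSP27, had 8564.1 and 8949.2 in FSP27-deficient WAT, against 20491.4 and 18254.6 in wild-type WAT, and the sources used here do not say if its probes read the deleted part.

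The gene with the largest fall of the 10, Cebpd, was compared with all genes tested by its profile over the 4 arrays, centred on its mean log2 value. The nearest were Tgfb3, a growth factor of the TGF beta family, at a root mean square distance of 0.060, Sdc1, a cell surface proteoglycan, at 0.061, and Rtl8c, a gene derived from a retrotransposon, at 0.064. Tgfb3 had 167.2 and 203.7 in FSP27-deficient WAT, against 523.4 and 485.6 in wild-type WAT. With only 4 arrays many profiles are alike, and 178 genes lay within 0.2 of Cebpd.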

How the data were processed

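The RNA of gonadal WAT was read on 4 Affymetrix arrays, 2 hybridizations of 1 pool per genotype. The deposited values are intensities: the authors' GCOS signals on a linear scale for 22690 probe sets. Their GCOS version and scaling target: not given in the sources used here. With 2 arrays a genotype, their number limits the precision. Log2 differences between duplicates had an SD over genes of 0.64 for FSP27-deficient and 0.46 for wild-type WAT.

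Names are those of the platform annotation: 20393 probe sets have 1 symbol, 691 several and 1606 none here, and those with 1 symbol were used. Each gene was read from its probe set with the highest mean signal. The 8523 genes whose mean signal reached 100 entered limma 3.58.1 (R 4.3.3) as log2(signal + 16), fitted by lmFit and eBayes with the prior spread following the signal. Fold changes are FSP27-deficient over wild-type, and p-values were adjusted by Benjamini-Hochberg over these genes, at a threshold of 0.05. A second fit took 13225 probe sets. Intervals are limma's 95% intervals, with 12.1 degrees of freedom, 2 of them residual. The steps were tested on simulated data. Promoters came from RefSeq (GRCm38.p6).

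The members and lists were chosen with earlier results of these data known, and the lists share some genes. The genes named are all members, Cidec, up to 4 genes of each other list with the largest change among those past the threshold, and the 3 nearest in profile to Cebpd; others are said to be named after their values were seen. The same replicate numbers occur in both genotypes, but the deviations of same-numbered arrays correlated at 0.07 over genes, so the numbers were not taken as pairs. Other settings tried were a pseudocount of 1 or 64, a signal minimum of 200 or none, quantile normalization, median centring of arrays, averaging a gene's probe sets, testing probe sets singly, eBayes without the trend, the methods' t-test on these values, a block for the replicate number, and leaving out 1 array at a time. A lone array of a genotype is then assumed to vary like the other genotype. Listed genes without a probe set of 1 symbol were not analysed here.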

Additional observations from a re-analysis of the deposited data

How the results depend on the processing

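The 4 arrays of 2 pools limit every call. Without the trend limma called 1 gene higher and 0 lower of all genes (1861 with an unadjusted p under 0.05), and of the members and of the other lists 0 in either direction, with adjusted p of 0.082 for Cebpd, 0.14 for Klf4 and 0.11 for Klf2. The methods' t-test after Benjamini-Hochberg adjustment called 0 genes in either direction of all genes (1309 with an unadjusted p under 0.05), of the members and of the other lists. With 1 array left out, the calls over all genes ran from 216 to 503 higher and from 192 to 874 lower, against 493 and 555. Members called ran from 0 to 1 higher and from 0 to 3 lower, the other lists from 1 to 7 higher and from 4 to 13 lower, against 5 and 13, and the early minus late change from -0.59 to -0.10.

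With no filter on signal 7 genes of the other lists were called lower. With probe sets averaged per gene it was 8, of the members 1 was called lower, and the early minus late change was 0.064. Of the immediate-early genes 0 were called lower with no filter and 1 with quantile normalization. The call of Klf4 was also lost with no filter (adjusted p = 0.074), quantile normalization (0.084), centring (0.10) and the mean of its probe sets (0.076), and over its alternatives its adjusted p ran from 0.019 to 0.33. Signs turned only for members that were not called: Cebpa was 0.058 with centring and Klf9 0.00063 with the mean of its probe sets, and with 1 array left out Cebpa ran from -0.092 to 0.053, Klf9 from -0.49 to 0.035, Klf5 from -0.43 to 0.48, Klf15 from -0.43 to 0.76 and Cebpg from -0.30 to 0.012. The cause was not tested.

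With the replicate number as a block, 1 member was called higher, Cebpb (adjusted p = 0.049), Ebf1 was called lower (0.049), 10 genes of the other lists were called higher, and 1 enzyme under KLF15 was called lower. The calls over all genes went to 635 higher and 831 lower under the block, and the numbers of only 2 pairs, which correlated at 0.07, were not taken as pairs.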
